A study of Drosophila melanogaster with 3 samples.

Results

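The annotated microRNA genes of Drosophila melanogaster were examined for binding of the zinc finger protein CG13296 (Prdm13) by chromatin immunoprecipitation sequencing (ChIP-seq). Every gene whose symbol begins with mir- on arms 2L, 2R, 3L, 3R, 4 and X of the Ensembl annotation was taken, which gave 260 of 18164 genes. Males and females were pooled as whole 6 to 18 hour embryos of the transgenic line CG13296-GFP, which carries CG13296 with a green fluorescent protein (GFP) tag at its C terminus. The age was taken from the source name, because the age tag holds an impossible number of hours. There was 1 group of 3 biological replicates and no second genotype, treatment or stage to compare it with. All cell types of the embryo were mixed, so a site used in few cells and a weakly used site cannot be told apart. One label names these libraries as input control, but the antibody tag and the deposited derivation records treat them as the precipitated side, set against 1 shared control. The lists analysed were the optimal set of 5724 peaks that passed the irreproducible discovery rate (IDR) step, a relaxed list of 30000 peaks from pooled replicates, and a relaxed list of 30000 peaks from each replicate. The authors label the pooled list as peaks and background, the input of the IDR step. A summit found in that list alone can therefore be background. A summit is the position of highest enrichment that the authors recorded in a peak. Its rank, from 1 for the highest signal, was used within 1 list only.

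MicroRNAs are short RNAs cut from a hairpin. The enzyme Drosha, with its partner Pasha, frees the hairpin from a long primary transcript, Dicer-1 trims it to a duplex, and 1 strand guides Argonaute 1 to messenger RNAs that pair with the seed, bases 2 to 8 of the mature microRNA. The primary transcript can be the intron of a protein-coding gene, the host, whose promoter then drives both products, or a separate non-coding transcript whose start may lie far upstream of the hairpin. A mirtron is a short intron that is itself the hairpin and bypasses Drosha. For these reasons a summit near a hairpin and a summit at the start of its primary transcript are different measurements, and both are given below.

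The mature forms shown here belong to the 8 clusters on arms 2L, 3L, 3R, 4 and X with the highest signal among IDR summits within 2 kb of a hairpin, followed by bantam and the mir-13b-1 cluster, which were added after their values were seen. They are the first annotated form of each gene in RefSeq on the release 6 genome, 5′ to 3′, with the seed in capitals. They are shown because genes of 1 cluster can share a seed, and hence possible targets, while differing in whether a summit lay near them.
mir-279, 3p: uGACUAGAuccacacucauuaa
mir-996, 3p: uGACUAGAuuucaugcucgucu
mir-9377, 5p: cGCUCUUUcucucuaucuggcc
mir-282, 5p: uAGCCUCUacuaggcuuugucugu
mir-967, 5p: aGAGAUACcucuggagaagcg
mir-92a, 3p: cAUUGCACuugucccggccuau
mir-92b, 3p: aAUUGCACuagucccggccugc
mir-317, 3p: uGAACACAgcuggugguauccagu
mir-277, 3p: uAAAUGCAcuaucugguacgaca
mir-34, 5p: uGGCAGUGugguuagcugguugug
mir-9378, 5p: aGUGGAGUgagaccucgaguucgg
mir-4912, 5p: gUGAGUAGucguauguuuauuaa
mir-ban (bantam), 3p: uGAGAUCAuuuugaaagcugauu
mir-13b-1, 3p: uAUCACAGccauuuugacgagu
mir-13a, 3p: uAUCACAGccauuuugaugagu
mir-2c, 3p: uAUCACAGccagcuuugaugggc

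All 260 members matched a RefSeq entry, with a median length of 22 nt (20 to 27) for the first annotated form. These forms carried 224 distinct seeds, and 17 seeds were shared by 53 genes. The seed AUCACAG pairs with the K box of Notch target genes and with messages of the pro-apoptotic genes reaper, grim and sickle. It was carried by 13 genes in 7 clusters. An IDR summit lay within 2 kb of 4 of the 13, mir-13a, mir-13b-1, mir-2c and mir-308, against 17.7% of all 260 members. Of these 4, mir-13a, mir-13b-1 and mir-2c form 1 cluster and shared 1 summit. The seed of mir-279 and mir-996 was also carried by mir-286, and 1 of these 3 genes, mir-279, had a summit within that distance. Of the 6 genes with the seed of mir-92a, 1 had a summit, mir-92a itself. In total 8 of the 46 members near a summit had a shared seed, against 53 of all 260 members. None of the 17 seed groups had a summit within 2 kb of each of its genes.

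An IDR summit lay within 2 kb of 46 of the 260 microRNA genes (17.7%). The same distance from the annotated 5′ end held a summit for 29.5% of the 17423 other genes, for 31.2% of protein-coding genes and for 21.2% of other non-coding RNA genes, and 13.4% of the bases of the 6 arms lay so close to a summit. Counted singly, microRNA genes thus lay between the bases and the other gene classes, with the reservation that the annotated end of a microRNA gene is that of its hairpin and not a transcription start. The number was the same, 46, when distance was taken from the 5′ end of the hairpin. Neighbouring hairpins are not independent, and counted as clusters within 10 kb on 1 strand the share was 41 of 203 (20.2%). That is near the 21.2% of other non-coding RNA genes, but the measures differ. A cluster was counted when any of its hairpins had a summit, whereas each other gene had 1 end. Among the 181 lone microRNA genes 34 had a summit, and among the 22 larger clusters 7. In the 5724 peaks of highest signal from each replicate, called the top lists here, the share was 18.5% in replicate 1, 17.7% in replicate 2 and 17.3% in replicate 3 for microRNA genes (17.8 ± 0.588, SD, n = 3), against 29.3%, 28.9% and 29.7% for other genes (29.3 ± 0.434, SD, n = 3). The gap between the gene classes was larger than the spread of either over replicates in all 3 libraries. That spread measures how far the libraries agree on the size of the share, not on which genes make it up. A top list summit lay within 2 kb of 58 members in 1 or more replicates and of 35 in all 3. The spread does not measure the uncertainty of a share over 260 genes, some of which are neighbours.

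The pooled relaxed list put a summit within 2 kb of 127 members (48.8%), against 60.2% of other genes, 61.1% of protein-coding genes, 55.9% of other non-coding RNA genes and 41.6% of bases. The whole replicate lists gave 142, 149 and 137 members (54.9% ± 2.32, SD, n = 3), against 62.5%, 61.1% and 62.4% of other genes. A relaxed summit near a microRNA gene was therefore common, as it was near any position. Of the 260 members, 81 had a pooled but no IDR summit within 2 kb, and 133 had neither. The median distance to the nearest IDR summit was 10.3 kb and to the nearest pooled summit 2050 bp.

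**Figure D1:**
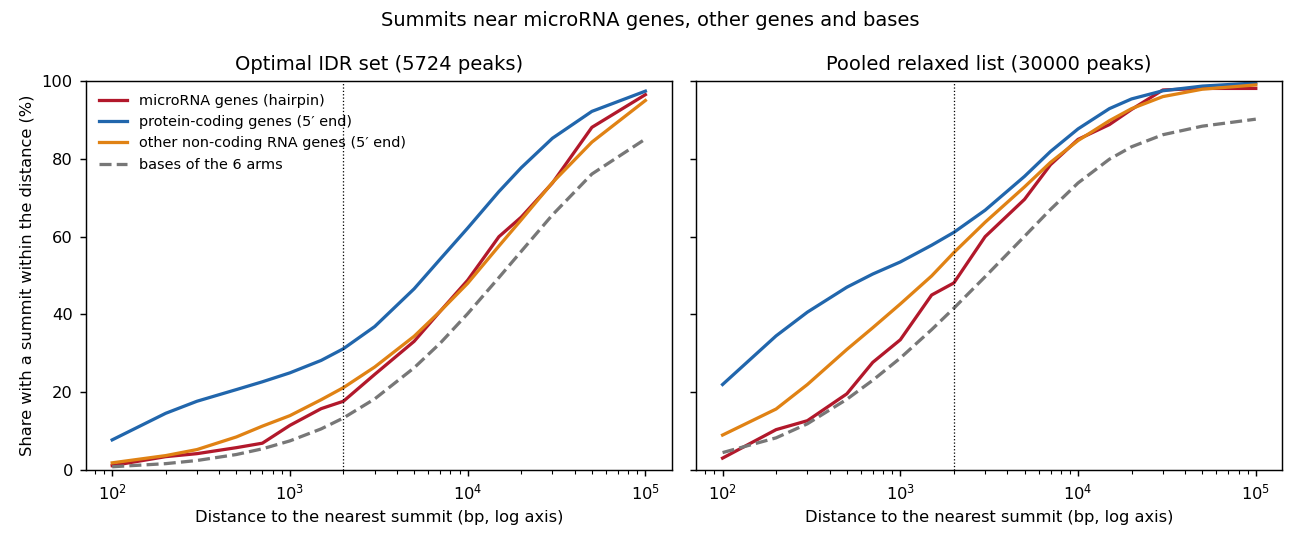
Share of 260 microRNA genes (from the 5′ end of the hairpin), protein-coding genes and other non-coding RNA genes (from the 5′ end) and bases with a summit within a given distance, for the IDR set (left) and the pooled relaxed list (right); the dotted line marks 2 kb. At 2 kb in the IDR set microRNA genes reach 17.7%, above bases at 13.4% and below protein-coding genes at 31.2%.

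Hairpins lay in introns in 112 cases, of which 20 had an IDR summit within 2 kb (17.9%). A hairpin in an intron of 1 transcript and an exon of another, such as mir-279 and the mir-281 pair, was counted as intronic alone. Among the 42 others in an exon of a non-coding transcript 11 had a summit within 2 kb (26.2%). It was 5 of the 31 others in an exon of a coding gene (16.1%). Among the 75 with no gene around them on the same strand it was 10 (13.3%). In the top lists the exonic non-coding class was at 27.0% ± 2.75 and the class with no gene around it at 13.8% ± 2.78 (SD, n = 3 each), so the order of these 2 classes held in each replicate. By arm, 11 of 56 members on 2L, 10 of 55 on 2R, 6 of 31 on 3L, 12 of 58 on 3R, 1 of 2 on 4 and 6 of 58 on X had an IDR summit within 2 kb. Gene numbers follow the order of discovery. Members numbered up to mir-375 had a summit in 18 of 80 cases (22.5%), those in the next band, up to mir-1017, in 7 of 67 (10.4%) and those with higher numbers in 20 of 108 (18.5%).

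The 46 members were reached by 61 IDR summits, 1.07% of the set. A top list summit of all 3 replicates lay within 200 bp of 37 of the 61 (60.7%), against 63.4% of all IDR summits, of 2 replicates for 16, of 1 for 7 and of none for 1. Their ranks ran from 62 to 5699 with a median of 3220. The nearest summit was upstream of the hairpin for 32 members, downstream for 13 and inside it for 1, mir-4962, at a median distance of 770 bp. More than 1 IDR summit lay within 2 kb of 16 members, with up to 3. A protein-coding TSS lay within 500 bp of 22 of the 61 summits (36.1%), against 49.6% of all IDR summits. A TSS of a non-coding transcript alone was that close for 6 (9.84%), against 2.13%, and 33 (54.1%) were away from both, against 48.3%. The 6 included summits at starts of the transcripts that hold mir-279, mir-282, mir-14, mir-8 and the mir-281 pair. Since the 61 summits were chosen for lying near microRNA genes, 9.84% and 2.13% do not compare like with like.

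**Figure D2:**
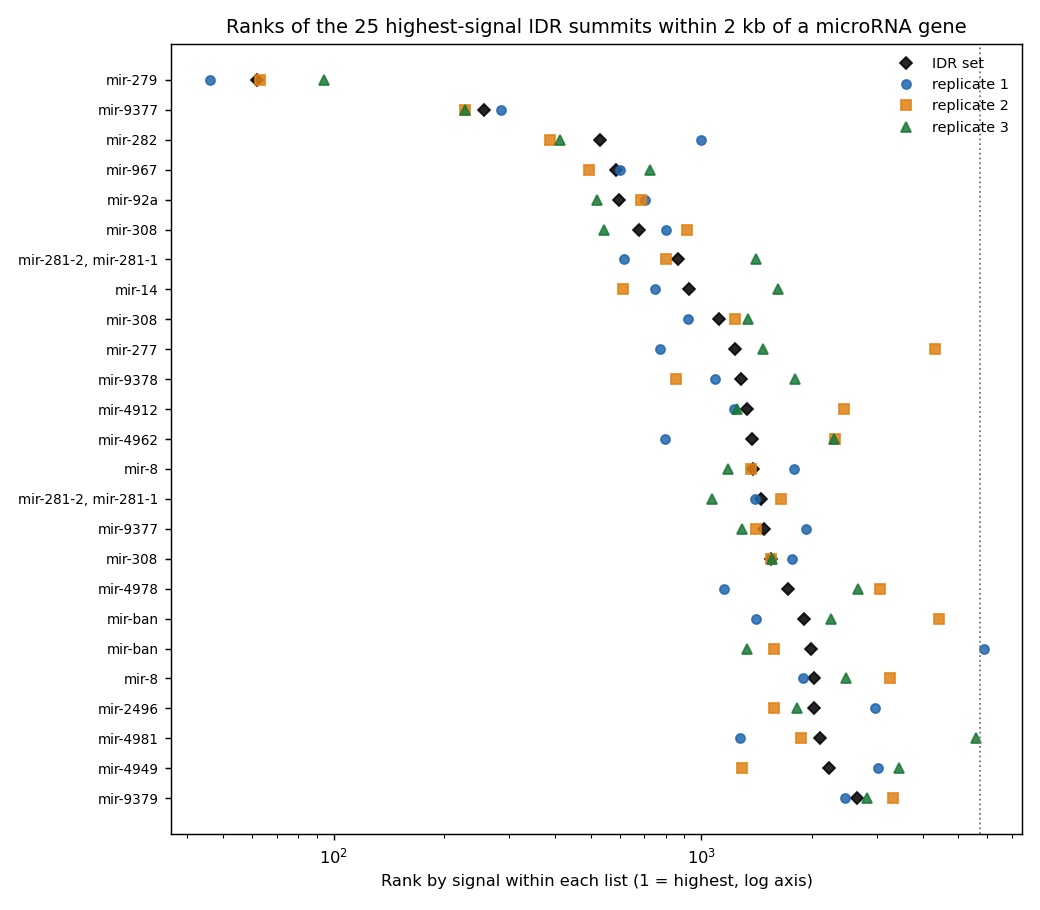
Rank by signal of the 25 highest-signal IDR summits within 2 kb of a microRNA gene, in the IDR set and in each replicate's whole list (log axis; the dotted line is rank 5724, the end of the top lists). The mir-279 summit is within the first 94 ranks in every list, and 1 bantam summit passes the line in replicate 1.

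The strongest summit of the group stood at mir-279, which restrains the formation of carbon dioxide sensing neurons. It ranked 62 of 5724 in the IDR set, 46 in replicate 1, 63 in replicate 2 and 94 in replicate 3. It lay 1147 bp upstream of the hairpin at chr3R:29215585-29215684 and 124 bp upstream of the start of lncRNA:CR31044, the transcript that holds mir-279 in an exon or intron according to isoform. The same transcript holds mir-996, a gene with an overlapping function, whose hairpin was 2746 bp from the same summit and so fell outside 2 kb. The replicate summits lay 0, 12 and 0 bp from the IDR summit.

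Next by signal among loci on the arms shown in the sequences above was mir-9377, in an intron of Tis11, which encodes a zinc finger protein that promotes decay of messenger RNAs. It had 3 IDR summits within 2 kb, at ranks 256, 1483 and 3940, none within 5000 bp of the TSSs of Tis11. The rank 256 summit was at 285, 227 and 228 in the 3 replicates. The mir-282 summit ranked 531 (997, 388 and 413 in the replicates) and lay 740 bp upstream of the hairpin and 312 bp upstream of a start of its primary transcript, lncRNA:CR43626. At mir-967 the summit ranked 586 (602, 494 and 724) and lay 185 bp upstream of a TSS of its host bun, which encodes a protein of the TSC-22 family. At mir-92a the summit ranked 596 (703, 687 and 521). It lay 439 bp downstream of the hairpin and 207 bp upstream of a TSS of its host jigr1, so the hairpin sat upstream of that start and inside the intron of longer isoforms. The partner mir-92b, whose mature form has the same seed, had no IDR summit within 2 kb, and its own transcript lncRNA:CR45917 had only a pooled summit at rank 28971, 48 bp from its start.

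The 5 windows shown next are the genomic sequence 100 bp on each side of these 5 summits, plus strand, release 6, in lower case. Capitals mark matches, on either strand, to the 8 short motifs searched.
mir-279, chr3R:29214338-29214538: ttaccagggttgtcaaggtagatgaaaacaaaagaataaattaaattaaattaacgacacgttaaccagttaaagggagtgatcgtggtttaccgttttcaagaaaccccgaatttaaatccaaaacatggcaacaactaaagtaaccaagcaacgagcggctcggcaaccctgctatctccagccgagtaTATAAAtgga
mir-9377, chrX:12666509-12666709: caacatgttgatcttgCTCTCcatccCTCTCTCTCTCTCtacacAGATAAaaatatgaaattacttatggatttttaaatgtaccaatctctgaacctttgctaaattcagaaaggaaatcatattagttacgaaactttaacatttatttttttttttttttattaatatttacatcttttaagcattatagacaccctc
mir-282, chr3L:3250182-3250382: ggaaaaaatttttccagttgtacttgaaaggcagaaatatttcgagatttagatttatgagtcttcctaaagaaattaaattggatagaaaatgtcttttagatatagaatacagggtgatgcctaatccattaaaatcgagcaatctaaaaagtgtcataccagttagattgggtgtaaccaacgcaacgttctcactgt
mir-967, chr2L:12461341-12461541: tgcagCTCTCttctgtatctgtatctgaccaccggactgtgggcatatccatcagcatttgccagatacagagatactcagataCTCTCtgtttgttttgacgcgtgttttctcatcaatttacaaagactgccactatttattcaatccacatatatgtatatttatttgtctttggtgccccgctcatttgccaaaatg
mir-92a, chr3R:25646939-25647139: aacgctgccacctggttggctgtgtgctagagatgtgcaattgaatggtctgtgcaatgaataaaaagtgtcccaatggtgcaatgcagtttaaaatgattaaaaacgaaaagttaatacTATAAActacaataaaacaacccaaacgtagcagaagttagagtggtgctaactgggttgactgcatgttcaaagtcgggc

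The 8 motifs were searched on both strands, and none contains another. The letters TATAAA are the core of the box bound by the TATA-binding protein. The repeat GAGAG is bound by the Trithorax-like protein. For the factors of the serpent and pannier family the motif was AGATAA, and for forkhead factors it was TGTTTAC. Basic helix-loop-helix proteins recognise the E-box written CAGCTG, and the early embryonic activator Zelda recognises CAGGTA. The remaining motifs belong to core promoters: TATCGATA is the DNA replication related element, and GGTCACACT is the element known as Motif 1. In the mir-279 window the capitals are TATAAA, 91 to 96 bp to the right of the summit and toward the start of lncRNA:CR31044. In the mir-9377 window they are 6 partly overlapping matches to GAGAG, read on the minus strand, and 1 to AGATAA. The mir-967 window held 2 matches to GAGAG, the mir-92a window 1 to TATAAA, and the mir-282 window none of the 8. Over all 61 windows, TATAAA occurred in 23.0%, against 35.4% of all IDR windows of this length. For GAGAG the shares were 23.0% against 24.6% of all IDR windows, and for AGATAA 13.1% against 15.4%. The forkhead motif occurred in 8.2% against 9.22%, the E-box in 8.2% against 10.2% and the Zelda motif in 4.92% against 3.98%. The replication related element was found in 1.64% against 3.13%, and Motif 1 in 1.64% against 1.24%. The median GC content was 41.3% in the 61 windows, against 36.3% in all IDR windows. These matches are a description of the letters, and binding of the named factors was not measured.

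Loci with a known role in cell death and growth came next. Of the 20 genes listed for this role, 6 had an IDR summit within 2 kb, in 4 clusters: mir-14, mir-8, mir-308, mir-2c, mir-13a and mir-13b-1. At mir-14, which suppresses cell death and limits fat storage, 3 IDR summits lay 988 and 131 bp upstream and 991 bp downstream of the hairpin, at ranks 925, 5536 and 4260. The strongest was 70 bp upstream of the start of its transcript lncRNA:CR43651 and ranked 747, 614 and 1615 in the replicates. The rank 5536 summit, nearest to the hairpin, had no top list summit within 200 bp in any replicate (ranks 6348, 6327 and 5927). At mir-8, the fly member of the miR-200 family, which promotes growth through insulin signalling, the strongest of 3 summits ranked 1386 (1787, 1364 and 1179) and lay 808 bp upstream of the hairpin and 65 bp upstream of a start of lncRNA:CR43650. The other two, at ranks 2022 and 4500, lay 1455 and 1655 bp downstream.

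Around mir-308, in an intron of the ribosomal protein gene RpS23, 3 summits ranked 676, 1120 and 1553, each within the top lists of all 3 replicates. The first stood 7 bp upstream of an RpS23 TSS and 721 bp from the hairpin. The cluster of mir-13b-1, mir-13a and mir-2c shared 1 summit, at rank 3094 (5376, 2519 and 2898), between 1075 and 1445 bp upstream of the 3 hairpins. It lay 1454 bp from the nearest start of their transcript lncRNA:CR45911, which itself carried only a pooled summit, at rank 15795. Other carriers of the same seed, mir-2a-1, mir-2a-2, mir-2b-1, mir-2b-2 and mir-11, had pooled summits only within 2 kb.

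Bantam, which promotes tissue growth and represses the pro-apoptotic gene hid, was in none of the role lists and had 3 IDR summits within 2 kb. They lay 1443 bp upstream and 683 and 976 bp downstream of the hairpin, at ranks 1992, 1907 and 5257. In replicate 1 the upstream summit ranked 5871, outside its top list, against 1575 and 1333 in the others. The start of the bantam transcript lncRNA:CR43334 had a pooled summit within 30 bp but no IDR summit closer than 1051 bp. For mir-281-1 and mir-281-2, in an intron of the antizyme gene Oda, summits at ranks 863 and 1455 lay on either side of the pair.

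**Figure D3:**
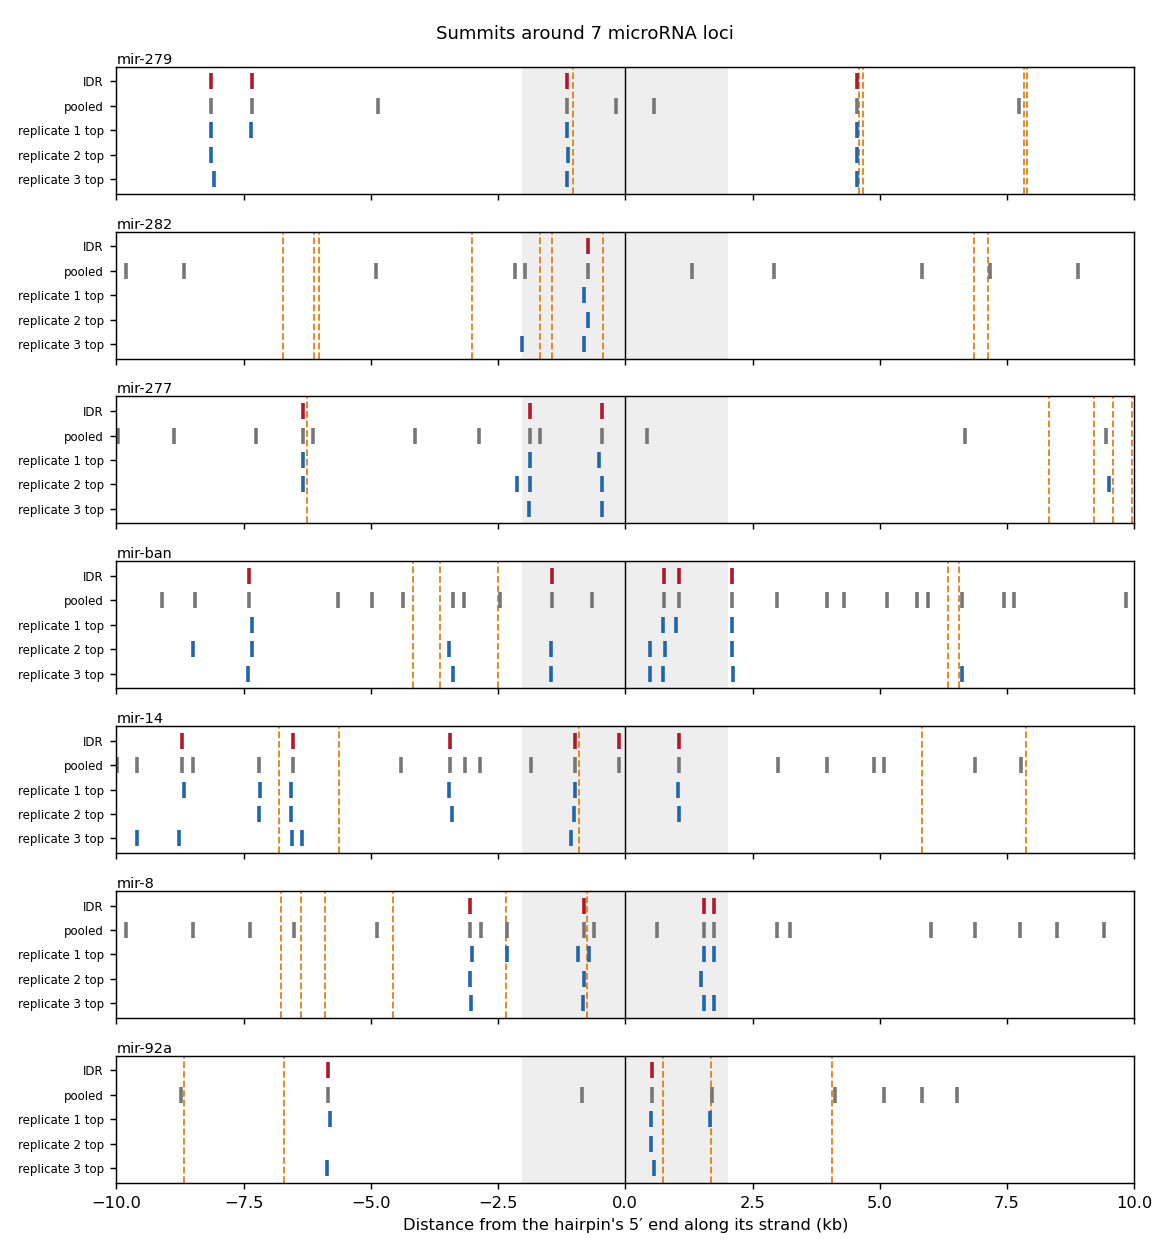
Summits (ticks) within 10 kb of 7 hairpins, drawn by distance from the hairpin's 5′ end along its strand, in the IDR set, the pooled list and the replicate top lists; the black line is the hairpin's 5′ end, grey shading is 2 kb on each side and dashed orange lines are annotated TSSs. At mir-279, mir-14 and mir-8 an IDR summit shared by all 3 replicates stands just upstream of a TSS within 2 kb of the hairpin.

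Timing and ageing genes split by cluster. The neighbours mir-277, a regulator of amino acid breakdown, and mir-34, known for its part in ageing of the brain, had IDR summits within 2 kb, while mir-317 of the same cluster was 2471 bp from its nearest one. The mir-277 hairpin had 1 summit 1872 bp upstream, at rank 1235 (772, 4314 and 1469), and 1 at 461 bp upstream, at rank 3791 (3468, 4202 and 4827), which also lay 1375 bp from mir-34. The start of the common transcript lncRNA:CR43459 carried a separate summit, 73 bp upstream of the start and 6.33 kb from mir-277, at rank 4714 (4670, 5386 and 6941). The let-7 complex, mir-100, mir-let7 and mir-125, which acts at metamorphosis, had no IDR or pooled summit within 2 kb, and the start of lncRNA:let7C was 14219 bp from a pooled summit.

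Among metabolism and hormone genes 4 of 6 had an IDR summit within 2 kb: mir-14, mir-8, mir-277 and mir-305. The first 3 are also counted in the lists above. The pair mir-275 and mir-305, listed for the germ line with 8 others that had none, shared a summit at rank 4238 (4672, 5009 and 5339), 319 bp upstream of a TSS of muc, which encodes a subunit of pyruvate dehydrogenase. The summit lay 503 bp downstream of mir-305 and 655 bp downstream of mir-275.

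The nervous system and sense organ list was the reverse case. IDR summits lay within 2 kb of 1 of its 17 genes (5.88%), mir-279, while pooled summits lay within 2 kb of 12 (70.6%). The brain microRNA mir-124 was 8043 bp from an IDR summit and 1703 bp from a pooled one, with a pooled summit at rank 10101, 112 bp from a start of its transcript. At mir-9a, which sharpens the choice of sense organ precursors, a pooled summit of rank 12441 lay inside the hairpin and the nearest IDR summit was 3115 bp away. For mir-bft (mir-263a), which protects bristle cells, and for mir-315, mir-7, mir-263b, mir-980, mir-276a and mir-996, the summits within 2 kb were likewise in the pooled list alone. The Hox complex microRNAs mir-10, mir-993, mir-iab-4 and mir-iab-8 had pooled summits within 2 kb in 4 of 4 cases and an IDR summit in 0 of 4, the nearest IDR summit being 13221 to 21436 bp away.

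The muscle microRNA mir-1 had neither kind within 2 kb (7276 bp to an IDR summit and 2054 bp to a pooled one). The 5 genes of the maternal to zygotic transition list belong to the mir-309 cluster, which clears maternal messages early in embryogenesis, and had 0 of 5 in either list. The lists are short, and a share of 17.7% of all members, or 48.8% in the pooled list, is the level against which each count is to be read.

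**Figure D4:**
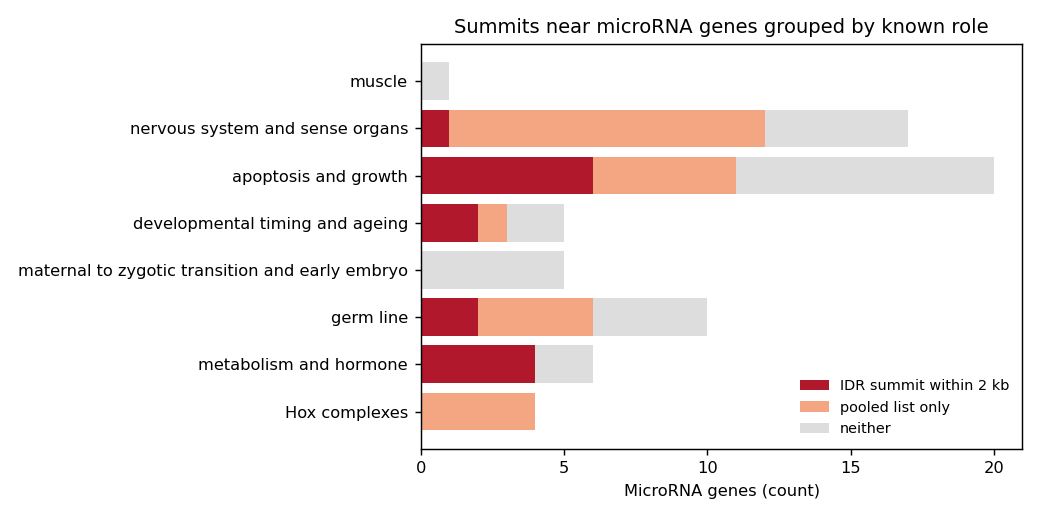
Number of microRNA genes in 8 lists by known role with an IDR summit within 2 kb, with a pooled summit only, or with neither; a gene may stand in more than 1 list. The nervous system list has 1 gene with an IDR summit and 11 with a pooled summit only, and the metabolism list has 4 of 6 with an IDR summit.

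Hairpins within 10 kb of each other on 1 strand formed 203 clusters, of which 181 were lone genes and 22 held 79 genes. An IDR summit lay within 2 kb of 41 clusters (20.2%), 34 of the 181 lone genes and 7 of the 22 larger clusters. These 7 were mir-279/mir-996, mir-92a/mir-92b, mir-277/mir-34/mir-317, mir-275/mir-305, mir-281-1/mir-281-2, mir-13b-1/mir-13a/mir-2c and mir-969/mir-210. The 5 largest clusters had no IDR summit within 2 kb of any gene. The cluster of 12 genes around mir-972 to mir-979 on X, which has been studied in the testis, was 36.1 kb from an IDR summit and 18.1 kb from a pooled one. The mir-309 cluster of 8 genes was 21.5 kb from an IDR and 8.09 kb from a pooled summit, and the mir-959 to mir-964 cluster of 6 genes 71.2 kb and 16.4 kb. Pooled summits did lie within 2 kb of the mir-310 cluster of 7 genes (4 genes) and of the cluster of 5 genes from mir-982 to mir-984 (3 genes), with IDR summits 52.3 and 40.8 kb away.

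Of the remaining members near an IDR summit, mir-4962, in an intron of the kinase gene Tlk, had a summit inside its hairpin, 1 bp from the 5′ end, at rank 1374 (796, 2313 and 2296). At mir-9378 in CG17124 the summit ranked 1281 and lay 178 bp upstream, and at mir-4912 in Fnta, which encodes a farnesyltransferase subunit, it ranked 1330 and lay 742 bp away. A summit of rank 4147 lay 24 bp from mir-9373 and 21 bp from a TSS of its host CG6231, and 1 of rank 4840 lay 33 bp from mir-954 and 62 bp upstream of mav, but the mir-954 peak was not listed in replicate 2 and ranked 6008 in replicate 3. Among the rest by signal were mir-4978 (rank 1721), mir-2496 (2027), mir-4981 (2111), mir-4949 (2225), mir-9379 (2647), mir-2282 (2943), mir-969 (3084) and mir-4968 (3221). The others were mir-87, mir-966, mir-2493, mir-4911, mir-4980, mir-9370, mir-375, mir-9374, mir-314, mir-956, mir-11182, mir-4955, mir-1012, mir-965 and mir-4943, at ranks from 4071 to 5699. Just inside 2 kb stood mir-4955 at 1944 bp, and just outside mir-9384 at 2111 bp, mir-9372 at 2183 bp and mir-1004 at 2285 bp. The IDR and replicate lists parted at mir-955, named here after its values were seen, which was 2308 bp from the nearest IDR summit but had a top list summit at 1388, 1384 and 1402 bp in the 3 replicates.

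Summits at the starts of host genes were counted separately. The 112 intronic microRNAs lay in 106 host genes. Any TSS of a host was counted, also that of an isoform without the hairpin. An IDR summit stood within 500 bp of a TSS in 36 hosts (34.0%), which held 44 microRNA genes (39.3%). With only TSSs of transcripts whose intron holds the microRNA, it was 32 hosts and 39 microRNA genes. With any TSS counted, 35 of the 99 protein-coding hosts had a summit (35.4%), against 23.3% of all protein-coding genes. In the pooled list it was 78 of 99 (78.8%), against 49.3%. In the top lists the coding hosts stood at 41.4%, 42.4% and 33.3% (39.1 ± 4.98, SD, n = 3), against 23.1%, 23.1% and 23.7% of all coding genes (23.3 ± 0.358, SD, n = 3) before the number of starts was taken into account.

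Host genes also have more annotated starts, with a median of 2 against 1 for all coding genes, and hence more positions at which a summit can be counted. With 1 TSS, 8 of 38 hosts had a summit (21.1%), against 17.1% of coding genes; with 2, 7 of 26 (26.9%), against 34.8%; with 3, 8 of 19 (42.1%), against 46.6%; and with 4 or more, 12 of 16 (75.0%), against 61.8%. The hosts were higher in the first and last class and lower in the middle classes. Weighting the coding genes to the hosts' numbers of TSSs gave 34.7%, and the 35.4% of hosts is near that background. In the top lists the hosts' 41.4%, 42.4% and 33.3% stood beside weighted shares of 34.5%, 35.6% and 34.9%, so replicate 3 was below its own and the other two were above. In the pooled list the weighted share was 64.2%, under the 78.8% of hosts.

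**Figure D5:**
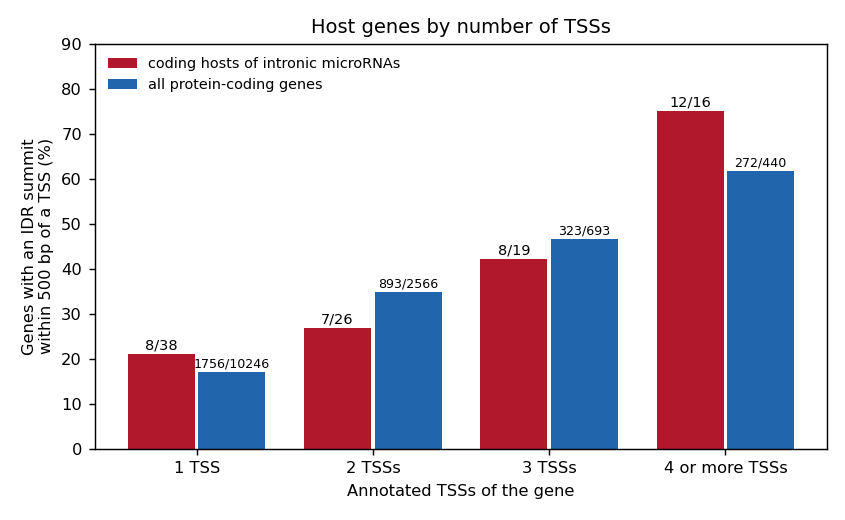
Share of 99 coding host genes of intronic microRNAs (left bars) and of 13945 protein-coding genes (right bars) with an IDR summit within 500 bp of a TSS, by number of annotated TSSs; counts stand above the bars. Shares increase with the number of TSSs in both, from 21.1% to 75.0% in hosts and from 17.1% to 61.8% in all coding genes.

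Among hosts with a summit at a start, the highest signal after lncRNA:CR31044 stood at for, the cGMP-dependent protein kinase gene that hosts mir-4972, at rank 111 (120, 103 and 117), 337 bp upstream of a TSS. At spi, which encodes the main ligand of the epidermal growth factor receptor and hosts mir-2a-2, mir-2a-1 and mir-2b-2, the summit ranked 360 (622, 421 and 264) and lay 242 bp upstream of a TSS and 5.57 kb from the nearest of the hairpins. It ranked 419 at the phospholipase gene PAPLA1 (mir-4984), 631 at the heparan sulfate sulfotransferase gene Hs3st-A (mir-4982) and 956 at Mob2 (mir-4968). At grp, the Chk1 kinase gene that hosts mir-9c, mir-306, mir-79 and mir-9b, it ranked 1798 (3064, 1350 and 1590), 12.8 kb from the hairpins. At E2f1, the cell cycle factor gene whose intron holds mir-998 and mir-11, it ranked 3752, but 11389 in replicate 1, against 1858 and 3068 in replicates 2 and 3.

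The further hosts were bun, RpS23, Oda and jigr1, described above, and kis, CG31689, Atet, qtc, Pfas, Nlg2, CG17124, VhaSFD, CG45092 with chk (1 summit for both), CanB2, CG13954, Pka-R2, tacc, CG42788, ND-23, CG6231, CASK, CG7029 with Usp12-46 (1 summit for both), ATPsynC, Tlk, Drak and Abca3. For the strongest TSS summit of each host, support by the top lists of all 3 replicates was found in 26 of 36. In 27 of 36 hosts it was on the upstream side of the start. It was a median of 7.21 kb from the microRNA (0.162 to 75.6 kb). With every TSS summit counted, since 13 hosts had more than 1, the nearest was a median of 4.38 kb away (0.024 to 75.6 kb) and within 2 kb of the microRNA in 13 of the 36.

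The hairpins that fill a whole intron, with both ends within 3 bp of the splice sites, numbered 33. They had an IDR summit within 2 kb in 3 cases (9.09%), mir-4912, mir-4911 and mir-1012, against 17 of the 79 other intronic hairpins (21.5%). Their hosts had a summit at a TSS in 6 of 33 cases (18.2%), against 38 of 79 (48.1%). This division was made after the values were seen and was not tested. Hairpins were counted here, so a host with several of them was counted more than once. The 2 host shares were not weighted to numbers of TSSs. Of all protein-coding genes 23.3% had a summit at a TSS, 17.1% of those with 1 TSS and 61.8% of those with 4 or more.

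For microRNAs in exons of non-coding transcripts, here including those also counted as intronic, the start of the primary transcript could be examined directly. Of 33 such transcripts' genes 7 had an IDR summit within 500 bp of a TSS (21.2%), against 8.85% of other non-coding RNA genes, or 13.5% weighted to the same numbers of TSSs. A pooled summit was found for 25 (75.8%), against 31.3%, or 37.6% weighted. The share in the top lists was 21.2%, 27.3% and 18.2% (22.2 ± 4.63, SD, n = 3), against weighted shares of 12.3%, 13.0% and 13.8%. The 7 were lncRNA:CR31044 (mir-279, mir-996), lncRNA:CR43626 (mir-282), lncRNA:CR43651 (mir-14), lncRNA:CR43650 (mir-8), lncRNA:CR43459 (mir-277, mir-34), asRNA:CR46194 (mir-281-1, mir-281-2) and lncRNA:Hsromega, a heat-induced nuclear RNA with mir-4951 in an exon, at rank 484 (644, 1040 and 327). At 18 further starts the summit was in the pooled list alone. They included the transcripts of mir-1 (rank 18436), mir-124 (10101), mir-184 (6822), mir-bft (6395), mir-10 (7433), mir-iab-4 (16580), mir-275 (8647), mir-276a (8302), mir-315 (28338) and bantam (7955). Starts with a summit in neither list were those of the let-7 complex, of the mir-309 cluster, at 8021 bp, of mir-9a, at 620 bp, and of mir-4973, mir-987, mir-316, mir-985 and mir-9381.

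Genes of the microRNA machinery were examined at their own starts. Of the 22 listed, 9 had an IDR summit within 500 bp of a TSS (40.9%), against 23.3% of protein-coding genes, or 30.4% weighted to the numbers of TSSs of the 22, of which 13 had 2 or more. A pooled summit was found for 16 (72.7%), against 49.3%, or 59.6% weighted. In the top lists the share was 31.8%, 36.4% and 31.8%, against weighted shares of 30.3%, 30.6% and 30.8%, which is near the background. In the nuclear step these were drosha (rank 4849) and the cap-binding partners Ars2 (3900) and Cbp20 (2254). In the effector step they were AGO1 (4621), its partner gw, the GW182 protein (1757), the trimming exonuclease gene Nbr (4497) and the deadenylase gene twin (5383). In the related small interfering RNA pathway they were r2d2, the partner of Dicer-2, at rank 466 (527, 543 and 481), and AGO2 (4111). A pooled summit alone stood at pasha, Tailor, Dcr-2, Hen1, Not1, Pop2 and me31B. Dcr-1, loqs, Ranbp21, Cbp80, Ge-1 and DCP1 had neither within 500 bp. Most of these summits ranked low and were not shared by all replicates: 3 of the 9 genes kept a summit when a top list summit was required in every replicate.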

How the data were processed

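ChIP-seq peak lists of 3 biological replicates of CG13296-GFP embryos were used, with chromatin sonicated to 200 to 800 bp per the labels. The authors deposited narrowPeak lists on build dm6, whose signal value per peak was used for ranks only. Their −log10 q-value, also deposited by the authors, was not used. The IDR set and the pooled list join all replicates, per the deposited derivation records. For the aligner, the peak caller, the IDR threshold and the read numbers, the entry is "not given in the sources used here". The depth is therefore unknown.

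Genes came from Ensembl 115 (BDGP 6.54), whose coordinates are those of dm6. The 481 mature microRNA entries were left out of hosts and background. Distances ran from the nearest base of the hairpin to the summit, or from a TSS. Clusters joined hairpins within 10 kb. A host had to hold the hairpin in an intron on the same strand. Replicate support meant a summit within 200 bp among the 5724 peaks of highest signal, and 1 replicate summit could serve neighbouring IDR summits. Listed names mir-263a, nbr, POP2 and Dcp1 were matched as mir-bft, Nbr, Pop2 and DCP1. Scripts ran in Python 3.11.15 with pandas 2.3.3 and numpy 2.4.6, and the distance code was tested on simulated positions.

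Members and lists were chosen with earlier results of these data known. Named were all members with an IDR summit within 2 kb, all hosts with one at a TSS, the role and machinery lists, the 5 largest clusters and the members next to the 2 kb limit. No test was run: there is 1 group, and shares are set beside those of all genes, with the SD over replicates. Background shares at TSSs were also weighted to each group's numbers of TSSs (1, 2, 3, 4 or more), which was added after the values were seen. The alternatives were other windows, cluster gaps, host definitions and peak sets, and each replicate left out in turn.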

Additional observations from a re-analysis of the deposited data

How the results depend on the processing

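The count of 46 microRNA genes became 16 at 500 bp, 87 at 5 kb and 20 with the 2862 IDR peaks of highest signal. The share of microRNA genes was below that of other genes at each window: 6.15% against 18.2% at 500 bp, 11.9% against 22.8% at 1000 bp, 17.7% against 29.5% at 2000 bp and 33.5% against 44.6% at 5000 bp. The 41 clusters became 16, 74 and 19 under the same 3 changes. The 44 intronic microRNAs with a summit at a host TSS became 25 at 200 bp and 29 with the peaks of highest signal, and the 36 host genes became 23 and 23. The 127 genes of the pooled list became 55 at 500 bp. The replicate mean of 17.8% became 54.9% with whole lists and 11.0% at 1000 bp. Of the 9 machinery genes 3 were left with peaks supported by all 3 top lists. Keeping IDR peaks supported by both other replicates when 1 was left out gave 35 to 37 microRNA genes, 30 to 32 clusters, 34 to 38 intronic microRNAs, 28 to 31 hosts and 3 to 6 machinery genes (5 without replicate 1, 6 without replicate 2 and 3 without replicate 3), and the replicate mean moved from 17.5% to 18.1%. The cause of these changes beyond the smaller peak sets and windows was not tested. No paired analysis was possible because there is 1 group. Depth is unknown, so a member without a summit was only not listed at this depth. The replicates are 3, whole embryos mix cell types, and the ranks do not measure occupancy.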
